A study of Mus musculus with 2 samples.

Results

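Laminin chains and integrin subunits were examined in droplet-based RNA libraries of the mouse right ventricle, class of cell by class of cell. The genes were chosen by symbol, as every laminin alpha, beta or gamma chain and every integrin alpha or beta subunit with at least 20 transcript counts over all barcodes. This gave 38 of the 27999 features, namely 11 laminins, 19 integrin alpha features and 8 integrin beta subunits. The alpha features include 2 that carry the symbol Itgam. No feature with a matching symbol fell under the minimum. Together the 38 held 440286 of the 108181993 transcript counts (unique molecular identifiers, UMIs).

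The 2 libraries, RV_1 and RV_2, form 1 group. Both come from C57/BL6J mice with floxed alleles of CBP (CBP flox/flox) and of p300 (p300 flox/flox), genes for related acetyltransferases, and also of Trap (Trap flox/flox). The pups received AAV9 on postnatal day 1 to knock out p300/CBP, and the right ventricle was taken on postnatal day 21. Neither the cargo and promoter of the AAV9 nor the number of animals behind a library is given in the sources used here. The labels also name collagenase digestion and an enrichment with CD45+ beads. No control library was analysed here, so all comparisons are between cell classes of the same 2 libraries, and no value can be read as an effect of the knockout. The libraries differ in Y-linked transcripts, as given below, so they are not repeats of the same cells, but the labels do not say which animals each holds. Library is a block in the test, so a shift common to all classes of a library is removed. The p-values rest on how far the differences between classes vary between these 2 libraries. They cannot be read as a measure of the spread between animals.

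Laminins are heterotrimers of an alpha, a beta and a gamma chain that assemble into the sheet-like backbone of the basement membrane, the matrix layer around every cardiac myocyte and under every endothelium. Integrins are heterodimers of an alpha and a beta subunit that span the plasma membrane, bind laminin, collagen, fibronectin or other cells outside, and attach to the actin cytoskeleton through talin and kindlin inside. In the heart they carry force between the sarcomere and the matrix, and several subunits that pair with integrin alpha V release active TGF-beta from its latent complex.

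The start regions of 3 members with higher levels in cardiomyocyte-like cells are shown because they belong to the receptor subunits and the laminin chain that the cardiomyocyte results turn on. The sequences are RefSeq promoter windows of assembly GRCm38.p6, each 300 bases long, printed 5′ to 3′ on the gene's strand. The Lama2 window lies inside the gene as drawn in the GENCODE annotation, where the 5′ end of Lama2 is at chr10:27619758. Capitals mark matches to the motifs searched on both strands, which were GATAA (GATA factors), CATTCC (TEAD factors), CANNTG (E-box) and the MEF2 motif.
Itgb6, chr2:60722554-60722853, minus strand: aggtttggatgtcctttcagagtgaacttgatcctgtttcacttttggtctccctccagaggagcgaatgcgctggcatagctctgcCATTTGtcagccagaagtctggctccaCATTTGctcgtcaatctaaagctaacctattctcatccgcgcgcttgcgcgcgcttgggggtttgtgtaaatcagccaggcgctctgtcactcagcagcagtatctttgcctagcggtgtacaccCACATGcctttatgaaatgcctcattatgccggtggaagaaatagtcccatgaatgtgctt
Lama2, chr10:27616893-27617192, minus strand: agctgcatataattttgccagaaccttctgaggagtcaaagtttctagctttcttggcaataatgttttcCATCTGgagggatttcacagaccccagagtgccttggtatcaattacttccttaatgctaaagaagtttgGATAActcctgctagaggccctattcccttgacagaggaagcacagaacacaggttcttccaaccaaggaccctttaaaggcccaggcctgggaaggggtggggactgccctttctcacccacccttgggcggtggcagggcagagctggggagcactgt
Itgb5, chr16:33829415-33829714, plus strand: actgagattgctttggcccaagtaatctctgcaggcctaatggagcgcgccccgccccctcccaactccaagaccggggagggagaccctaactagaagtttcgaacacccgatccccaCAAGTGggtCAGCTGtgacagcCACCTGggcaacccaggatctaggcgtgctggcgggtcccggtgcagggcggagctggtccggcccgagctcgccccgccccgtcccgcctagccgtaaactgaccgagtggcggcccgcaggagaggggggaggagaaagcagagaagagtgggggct
The Itgb6 window shown and the Itgb5 window each hold 3 E-box matches and no match to GATAA, to the MEF2 motif or to CATTCC, and the Lama2 window holds 1 E-box and 1 GATAA. Of the 37 distinct member symbols, 23 had an entry in the RefSeq table, with 26 windows in all. E-boxes were in 22 of these 26 windows, against 72.3% of all 32851 windows of that length that were searched. GATAA was in 2 of the 26, against 25.4% of all windows, and CATTCC was in 3, against 14.7%. The MEF2 motif was in 1 of the 26, against 1.86% of all windows. The members called higher in cardiomyocyte-like cells had 7 windows, which belong to 5 of the 7 such members. Among these windows 7 held an E-box, 1 held GATAA, 1 held CATTCC and 0 held the MEF2 motif. A match describes letters in a window and is not evidence of binding.

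Library 1 held 12736 barcodes with a median of 3586 UMIs, and library 2 held 9447 with a median of 3945. They shared 17 barcode sequences. The median mitochondrial share of UMIs per barcode was 0.338% in library 1 and 0.229% in library 2. The sources used here do not say whether whole cells or nuclei were loaded, so the levels may be those of nuclear RNA. The libraries stand apart in sex-linked transcripts, since Uty was at 0.293 CPM (UMIs of a gene scaled to a common total, the same for every sum of cells) in library 1 and 214 CPM in library 2, while Xist was at 1246 and 529 CPM. Transcripts of the targeted genes were present in both libraries, with Ep300 (p300) at 115 and 145 CPM and Crebbp (CBP) at 390.0 and 515 CPM. The sources used here do not name the part of either gene that was deleted, and a 3′ count outside it checks nothing. After filters and removal of doublets 20436 cells were kept, and clusters were named from marker genes with the members left out of the clustering. Of the classes, 8 had at least 50 cells in each library and were tested. They were cardiomyocyte-like (7734 and 2236 cells in libraries 1 and 2), fibroblast-like (897 and 2396), pericyte-like (375 and 400), endothelial-like (624 and 952), endocardial-like (139 and 998), lymphatic endothelial-like (52 and 182), epicardial or mesothelial-like (65 and 588) and macrophage-like (240 and 500). Macrophage-like cells were 2.02% and 5.83% of the kept cells, although the labels name a CD45+ enrichment. A cluster of 967 cells with a median of 581 UMIs and cardiomyocyte transcripts was left unnamed. The summed UMIs per class and library ran from 209457 in lymphatic endothelial-like cells of library 1 to 44464100 in cardiomyocyte-like cells of library 1. Transcripts of 12 cardiomyocyte markers were found in every class. Their summed level outside cardiomyocyte-like cells was 13.8% to 36.1% of that in cardiomyocyte-like cells in library 1, and 2.33% to 13.6% in library 2.

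Levels are given as CPM of a class in library 1 and then in library 2, with no correction for gene length, so they are compared between classes and not between genes. Each class was tested against the mean of the log2 levels of the 7 other classes with edgeR's quasi-likelihood test on the summed counts of 13644 genes. A gene was called at a Benjamini-Hochberg adjusted p under 0.05 and a difference of at least 2-fold. Of the 38 members, 32 passed the filter on low counts and were tested. The untested ones were Lama1, Itgad, Itgae, Itgax, Itgb7 and the second Itgam feature. In the tested classes these 6 reached at most 14.3 CPM, which was Itgae in lymphatic endothelial-like cells of library 1.

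**Figure D1:**
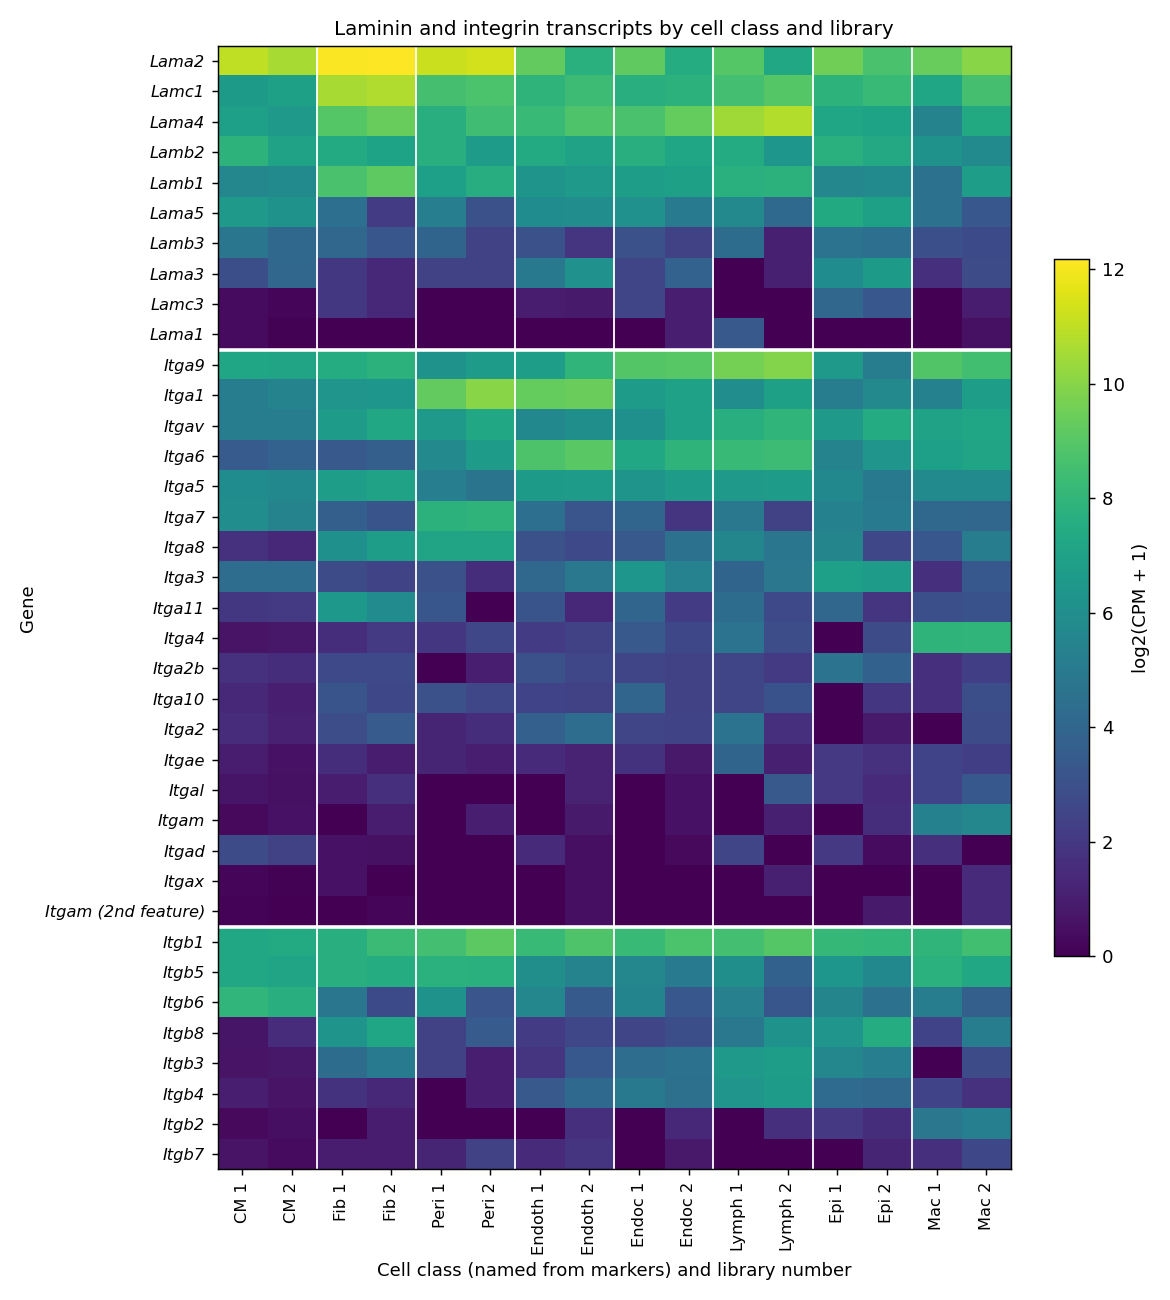
Heat map of log2(CPM + 1) for 37 laminin and integrin features (rows, grouped as laminins, integrin alpha and integrin beta subunits) in the 8 tested classes of libraries 1 and 2 (columns). CM, cardiomyocyte-like; Fib, fibroblast-like; Peri, pericyte-like; Endoth, endothelial-like; Endoc, endocardial-like; Lymph, lymphatic endothelial-like; Epi, epicardial or mesothelial-like; Mac, macrophage-like. Lama2 is brightest in fibroblast-like cells and Itga9 in lymphatic endothelial-like cells, while Itgb1 is present in every column.

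The members called higher differed between classes, and some were called higher in more than 1 class. In fibroblast-like cells 11 of the 32 tested members were called higher (background 10.7% of all tested genes) and 8 lower (background 8.75%). In epicardial or mesothelial-like cells 10 were higher (background 13.7%) and 6 lower (background 5.25%). Lymphatic endothelial-like cells had 8 higher (background 9.29%) and 3 lower (background 5.02%). Cardiomyocyte-like cells had 7 higher, a share of 21.9% that is near the background of 18.8%, and 11 lower (34.4%, background 20.9%). Endothelial-like cells had 5 higher (15.6%, background 10.1%) and 4 lower (background 6.14%), and endocardial-like cells had 5 higher (15.6%, background 8.11%) and 4 lower (background 3.15%). Pericyte-like cells had 5 higher (15.6%, background 8.0%) and 7 lower (background 5.74%). Macrophage-like cells had 5 higher (15.6%, near the background of 11.4%) and 5 lower (background 4.79%). The median log2 difference of the tested members was -0.76 in cardiomyocyte-like cells, where that of all tested genes was 0.05. It was 0.39 in fibroblast-like cells, against -0.01 for all genes, and -0.83 in pericyte-like cells, against -0.07 for all genes. Relative to library totals, the scaling used raised the median difference of all genes in cardiomyocyte-like cells by 0.58 on the log2 scale, so differences in that class include this shift.

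Among the laminin alpha chains, the main chain of muscle basement membranes, Lama2, was highest in fibroblast-like cells. Its level there was 4404 and 4634 CPM, against 2328 and 2634 CPM in pericyte-like and 2033 and 1555 CPM in cardiomyocyte-like cells. The 5 other classes lay at 156 to 1028 CPM. The ranges of the fibroblast-like, pericyte-like and cardiomyocyte-like classes did not overlap each other or those of the rest, so the order of these leading classes was the same in both libraries. Lama2, whose mutation causes a congenital muscular dystrophy, was called higher in fibroblast-like cells (log2 difference 2.64 ± 0.30 (SE), edgeR adjusted p = 7.68e-06), in cardiomyocyte-like cells (log2 difference 1.73 ± 0.32 (SE), edgeR adjusted p = 2.27e-04) and in pericyte-like cells (log2 difference 1.73 ± 0.32 (SE), edgeR adjusted p = 0.00117). It was called lower in endothelial-like (-1.45), endocardial-like (-1.59) and lymphatic endothelial-like cells (-2.03, log2 differences). The endothelial-like level was 30.2% in library 1 and 13.4% in library 2 of the cardiomyocyte-like level of Lama2, beside 23.6% and 7.12% for the cardiomyocyte markers. The part of cardiomyocyte RNA in these low levels was not tested. Without library as a block, the lower calls in endothelial-like and endocardial-like cells were lost (edgeR adjusted p = 0.112 and 0.121).

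Lama4, the alpha chain of vascular basement membranes, led in lymphatic endothelial-like cells. It was at 1370.2 and 1729.6 CPM there, with 95% Poisson intervals of 1216 to 1538 and 1646 to 1816 CPM, while the other classes held 42.7 to 661 CPM (log2 difference 2.53 ± 0.22 (SE), edgeR adjusted p = 6.91e-07). Fibroblast-like cells (494 and 661 CPM), endocardial-like cells (410.2 and 629.5 CPM) and endothelial-like cells (309 and 445 CPM) came next with overlapping ranges. Cardiomyocyte-like cells (116 and 94.2 CPM) and epicardial or mesothelial-like cells (142 and 132 CPM) were called lower, with log2 differences of -1.11 and -1.45. Lama2 was thus called lower in endothelial-like, endocardial-like and lymphatic endothelial-like cells, whereas Lama4 was called higher in the lymphatic endothelial-like class alone. Both chains were present in fibroblast-like cells.

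Lama5, a chain of epithelial and mature vascular basement membranes, was highest in epicardial or mesothelial-like cells. The values were 166 and 121 CPM in that class, 91.3 and 74.5 CPM in cardiomyocyte-like cells and 59.0 and 61.7 CPM in endothelial-like cells. Fibroblast-like cells were at 20.9 and 3.36 CPM. It was called higher in epicardial or mesothelial-like cells (log2 difference 2.27 ± 0.30 (SE), edgeR adjusted p = 3.22e-05) and in cardiomyocyte-like cells (log2 difference 2.01 ± 0.26 (SE), edgeR adjusted p = 7.63e-06), and lower in fibroblast-like cells (log2 difference -2.37 ± 0.41 (SE), edgeR adjusted p = 4.09e-04). Lama3, which with Lamb3 is part of the laminin that anchors surface epithelia, was at 60.3 and 99.1 CPM in epicardial or mesothelial-like cells and 29.1 and 71.7 CPM in endothelial-like cells. The ranges of these classes overlapped each other and lay above those of the other classes, which held 0 to 15.1 CPM. It was called higher in both (log2 difference 3.78 ± 0.23 (SE), edgeR adjusted p = 7.75e-09, and log2 difference 3.11 ± 0.24 (SE), edgeR adjusted p = 1.07e-07). In cardiomyocyte-like cells Lama3 was at 6.57 and 15.1 CPM. Its higher call there (log2 difference 1.16 ± 0.24 (SE), edgeR adjusted p = 6.59e-04) was lost with DESeq2, with library totals alone, without the library block and with doublets kept, where the differences were 0.90, 0.59, 1.01 and 0.78. In lymphatic endothelial-like cells Lama3 had 0 UMIs in library 1, which allows up to 14.3 CPM, and 1.07 CPM in library 2. Lama1, the chain of early embryonic membranes, reached 9.55 CPM in lymphatic endothelial-like cells of library 1 and at most 1.01 CPM in any other tested class and library.

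**Figure D2:**
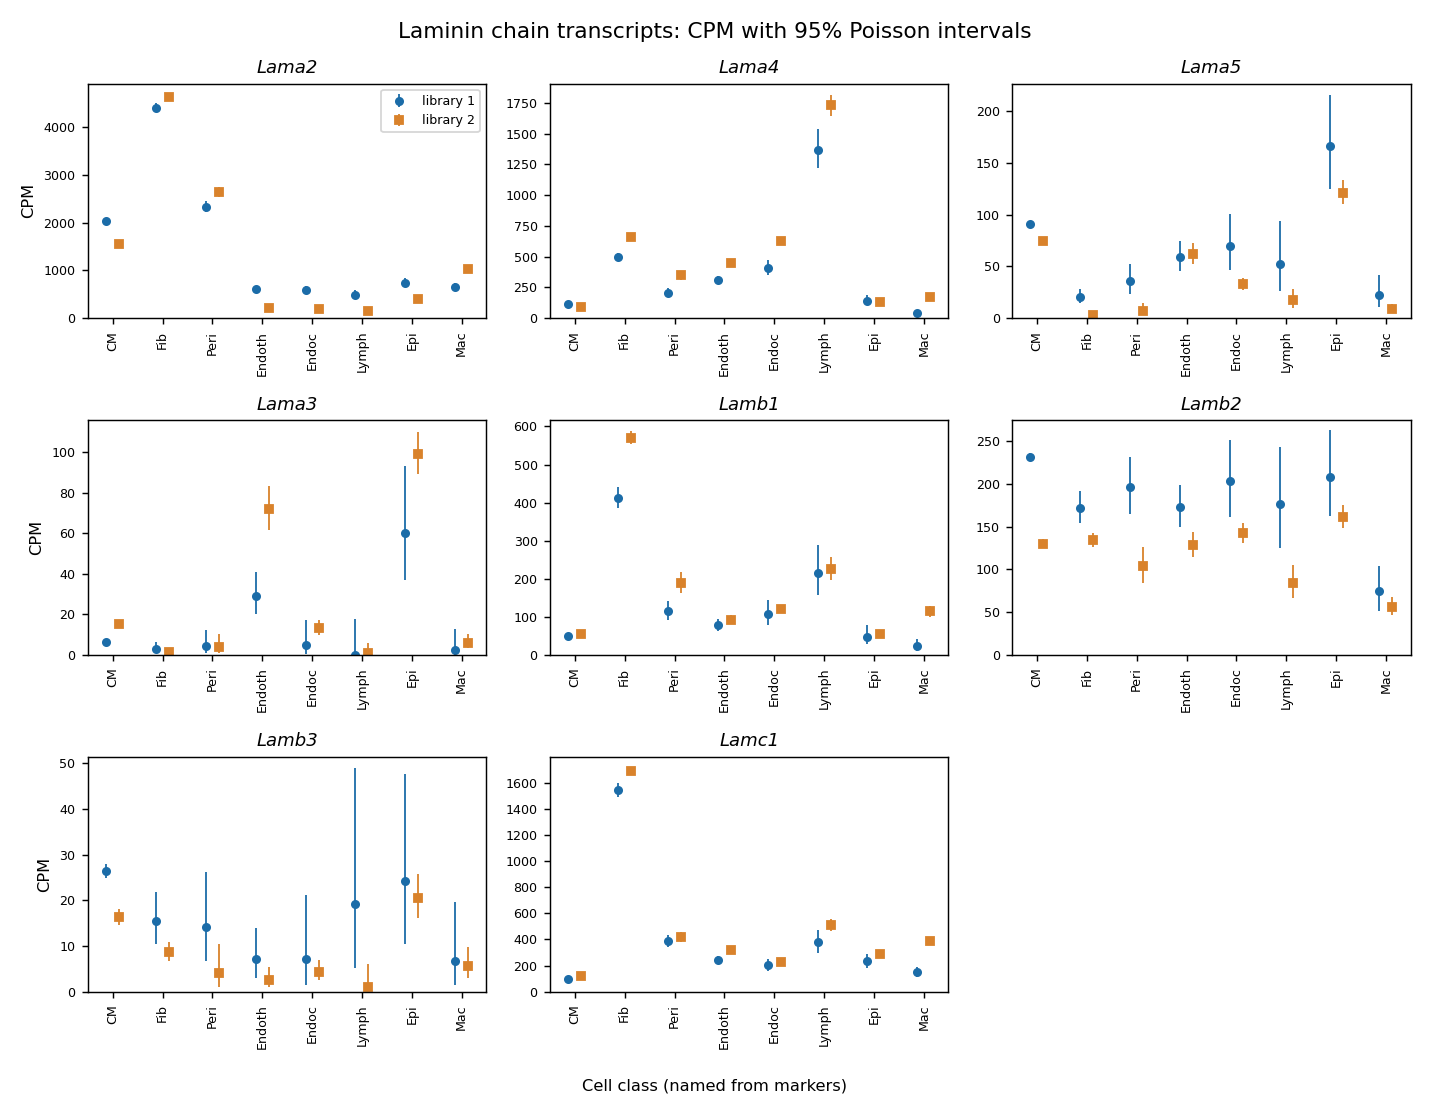
CPM of 8 laminin chains (panels) in the 8 tested classes (horizontal axis), with points for library 1 (circles) and library 2 (squares) and bars for 95% Poisson intervals, which cover counting error only. Lama2, Lamb1 and Lamc1 stand highest in fibroblast-like cells (Fib), Lama4 in lymphatic endothelial-like cells (Lymph) and Lama5 and Lama3 in epicardial or mesothelial-like cells (Epi).

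The beta and gamma chains that most laminins share, Lamb1 and Lamc1, were highest in fibroblast-like cells. Lamb1 was at 413 and 571 CPM there, with the other classes at 22.5 to 225 CPM (log2 difference 2.31 ± 0.19 (SE), edgeR adjusted p = 2.80e-07). Lamc1 was at 1543 and 1688 CPM in fibroblast-like cells, against 99.5 to 507 CPM in the other classes (log2 difference 2.56 ± 0.16 (SE), edgeR adjusted p = 1.48e-08). No fibroblast-like value of either chain overlapped another class, and cardiomyocyte-like cells had the lowest mean of both, at 49.0 and 54.5 CPM for Lamb1 and 99.5 and 119 CPM for Lamc1. Lamc1 was called lower in cardiomyocyte-like cells (log2 difference -1.22 ± 0.21 (SE), edgeR adjusted p = 1.32e-04). Lamb1 was called lower in epicardial or mesothelial-like cells only, and not in cardiomyocyte-like cells. Lamb2, the beta chain of the neuromuscular junction and of muscle and vessel membranes, was at 84.6 to 231 CPM in 7 classes. Its only call was lower in macrophage-like cells (74.2 and 56.1 CPM; log2 difference -1.41 ± 0.18 (SE), edgeR adjusted p = 2.11e-05). In cardiomyocyte-like cells (231 and 129.8 CPM) it missed the 2-fold limit (0.95, edgeR adjusted p = 1.30e-05).

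The chains Lamb3, known from epithelia, and Lamc3 were low throughout. Lamb3 was at 24.1 and 20.5 CPM in epicardial or mesothelial-like cells and 26.3 and 16.2 CPM in cardiomyocyte-like cells, with overlapping ranges, and was called higher in both (log2 difference 1.60 ± 0.30 (SE), edgeR adjusted p = 7.64e-04, and log2 difference 1.95 ± 0.21 (SE), edgeR adjusted p = 1.37e-06). The gene overlaps 4930570N18Rik on its own strand and Hsd11b1, G0s2 and Gm37650 on the other, so its counts are uncertain. Lamc3 was at 15.1 and 8.83 CPM in epicardial or mesothelial-like cells and 2.98 and 1.56 CPM in fibroblast-like cells, and was called higher in both. Since Lamc3 had 0 UMIs in both libraries of pericyte-like and of lymphatic endothelial-like cells, its fitted differences depend on the prior count and are not given.

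Of the collagen-binding integrin alpha subunits, which all pair with Itgb1, Itga1 was highest in 2 classes of the vessel wall. It was at 617 and 1029.9 CPM in pericyte-like and 633 and 681 CPM in endothelial-like cells, whose ranges overlapped, against 33.2 to 123 CPM elsewhere. It was called higher in pericyte-like cells (log2 difference 3.05 ± 0.16 (SE), edgeR adjusted p = 2.65e-09) and in endothelial-like cells (log2 difference 2.73 ± 0.16 (SE), edgeR adjusted p = 8.20e-09), and lower in cardiomyocyte-like cells (34.6 and 42.4 CPM; log2 difference -1.35 ± 0.21 (SE), edgeR adjusted p = 5.74e-05). Itga1 contains Pelo on the same strand, so counts of the 2 genes could be mixed. Itga11, the fibrillar collagen receptor of fibroblasts, was at 88.5 and 58.1 CPM in fibroblast-like cells and 0 to 19.1 CPM elsewhere (log2 difference 3.74 ± 0.29 (SE), edgeR adjusted p = 1.30e-07). No other class overlapped the fibroblast-like values. Itga2, known from platelets and epithelia, was low, with 12.3 and 19.6 CPM in endothelial-like cells and 6.46 and 10.4 CPM in fibroblast-like cells, both called higher (log2 differences 2.36 and 1.30). Itga10, the cartilage collagen receptor, stayed at 0 to 14.5 CPM outside cardiomyocyte-like cells and was called lower in them (1.55 and 1.05 CPM).

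The laminin-binding subunits Itga3, Itga6 and Itga7 were each highest in a different tested class. Endocardial-like cells were called higher for both Itga3 and Itga6, and fibroblast-like cells lower for all of these subunits. Itga6 was at 439 and 539 CPM in endothelial-like, 291 and 322 CPM in lymphatic endothelial-like and 157 and 245 CPM in endocardial-like cells. These 3 classes did not overlap, and each was called higher (log2 difference 2.89 ± 0.12 (SE), edgeR adjusted p = 3.94e-10 in endothelial-like cells; log2 differences 1.98 and 1.41 in lymphatic endothelial-like and endocardial-like cells). Fibroblast-like cells (9.44 and 11.9 CPM) and cardiomyocyte-like cells (10.2 and 13.2 CPM) were the lowest, and were called lower (log2 difference -3.50 ± 0.21 (SE), edgeR adjusted p = 1.32e-08, and log2 difference -2.65 ± 0.18 (SE), edgeR adjusted p = 1.67e-08). Itga7, the laminin receptor of adult muscle, was at 224 and 244 CPM in pericyte-like cells, 60.9 and 42.9 CPM in cardiomyocyte-like cells and 39.2 and 30.5 CPM in epicardial or mesothelial-like cells. The pericyte-like level was above the others in both libraries (log2 difference 3.97 ± 0.23 (SE), edgeR adjusted p = 6.58e-09), and the cardiomyocyte-like level was also called higher (log2 difference 2.02 ± 0.22 (SE), edgeR adjusted p = 1.34e-06). In cells thinned to 1000 UMIs, Itga7 was seen in 23.3% and 21.0% of pericyte-like cells and 6.49% and 4.94% of cardiomyocyte-like cells, and in 1.13% and 0.879% of fibroblast-like cells. Itga7 overlaps Mettl7b on the opposite strand.

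Itga3, a laminin receptor of epithelia, was at 118 and 103 CPM in epicardial or mesothelial-like cells and 84.4 and 41.3 CPM in endocardial-like cells, and both were called higher (log2 difference 2.85 ± 0.25 (SE), edgeR adjusted p = 4.67e-07, and log2 difference 1.74 ± 0.28 (SE), edgeR adjusted p = 4.23e-04). Cardiomyocyte-like cells were at 19.6 and 19.4 CPM. Pericyte-like (7.09 and 2.05 CPM), fibroblast-like (5.96 and 4.67 CPM) and macrophage-like cells (2.25 and 9.36 CPM) were called lower. Itgb4, which pairs with Itga6 alone and anchors hemidesmosomes in epithelia, was at 81.2 and 102 CPM in lymphatic endothelial-like cells. The other classes held 0 to 29.0 CPM (log2 difference 4.45 ± 0.28 (SE), edgeR adjusted p = 2.53e-08). Endocardial-like cells (29.0 and 21.5 CPM; log2 difference 2.23 ± 0.30 (SE), edgeR adjusted p = 8.06e-05), epicardial or mesothelial-like cells (18.1 and 15.7 CPM; log2 difference 1.59 ± 0.34 (SE), edgeR adjusted p = 0.00231) and endothelial-like cells (9.69 and 16.7 CPM; log2 difference 1.40 ± 0.33 (SE), edgeR adjusted p = 0.0059) were also called higher. In cardiomyocyte-like cells Itgb4 was at 1.01 and 0.576 CPM. The endothelial-like call was lost at the lower clustering resolution, with a log2 difference of 0.92.

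**Figure D3:**
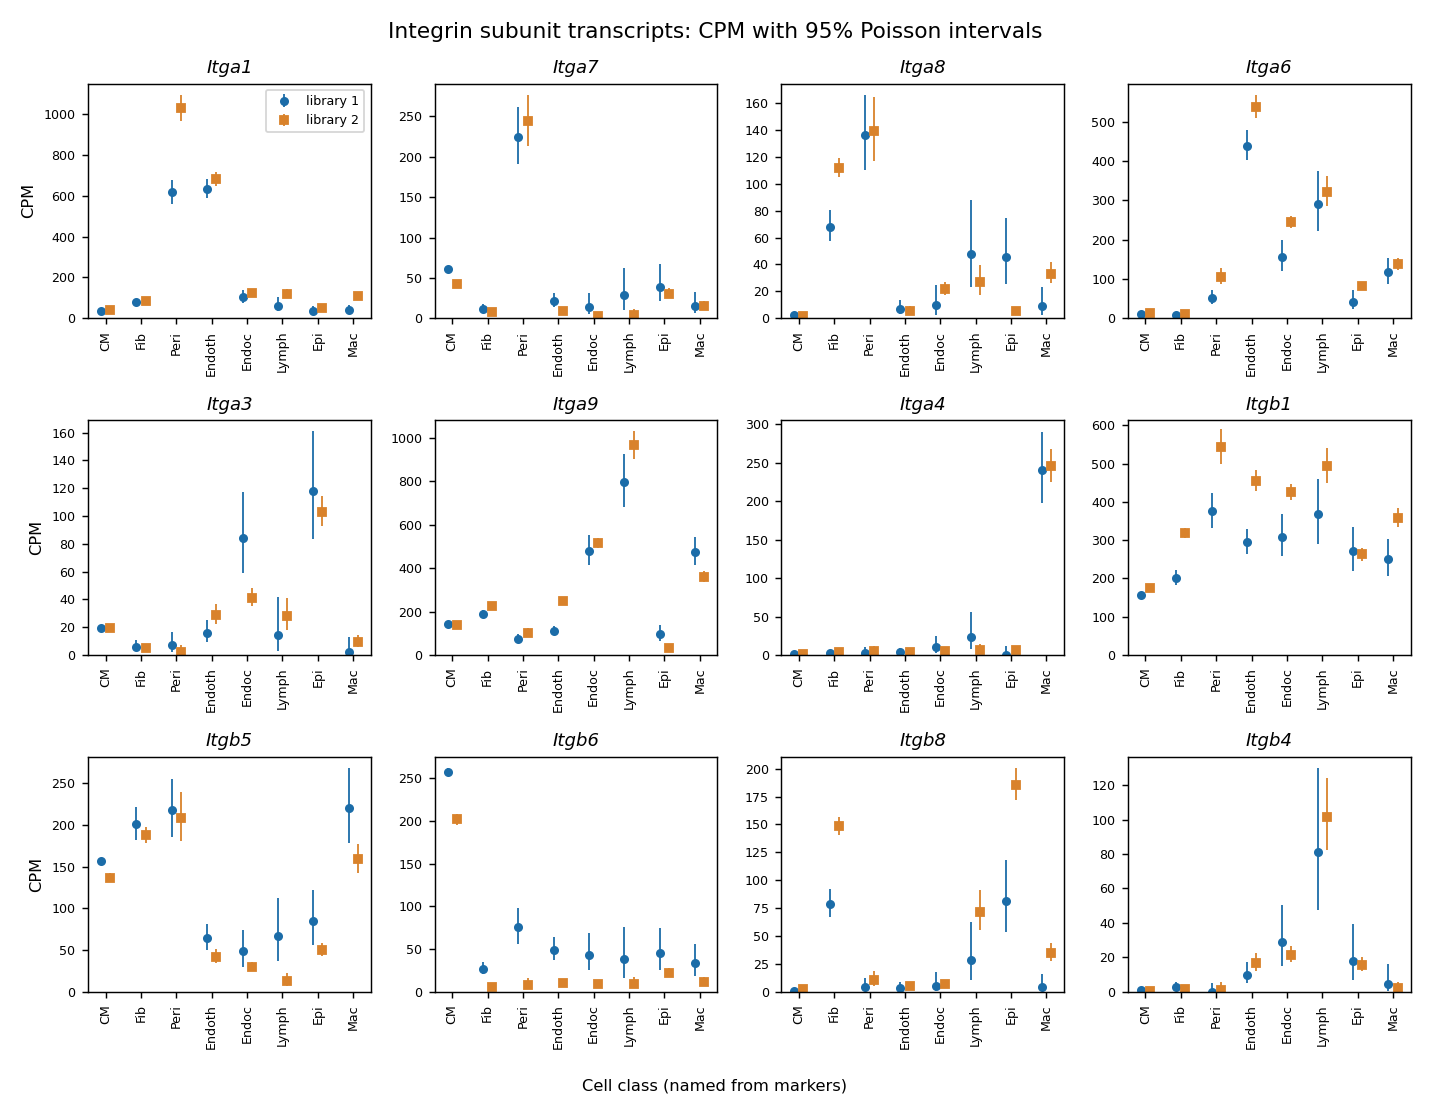
CPM of 12 integrin subunits (panels) in the 8 tested classes (horizontal axis), with circles for library 1, squares for library 2 and bars for 95% Poisson intervals, which cover counting error only. Itga7 stands highest in pericyte-like cells (Peri), Itga6 in endothelial-like cells (Endoth), Itga4 in macrophage-like cells (Mac) and Itgb6 in cardiomyocyte-like cells (CM), while Itgb1 is present in all.

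The subunits that bind RGD motifs in fibronectin, vitronectin and latent TGF-beta were split by class. Itga8, a receptor for nephronectin, was at 136 and 139 CPM in pericyte-like and 68.1 and 112 CPM in fibroblast-like cells, both called higher (log2 difference 3.15 ± 0.36 (SE), edgeR adjusted p = 1.41e-05, and log2 difference 2.42 ± 0.31 (SE), edgeR adjusted p = 2.76e-05). It was at 2.36 and 1.52 CPM in cardiomyocyte-like cells and was called lower there (log2 difference -3.19 ± 0.45 (SE), edgeR adjusted p = 2.15e-05). Itga5, the classic fibronectin receptor, ranged from 112 and 127 CPM in fibroblast-like cells to 35.5 and 24.6 CPM in pericyte-like cells. It was called lower in pericyte-like (-1.35) and in epicardial or mesothelial-like cells (-1.18, log2 differences), and higher in no class. Itgav, the partner of Itgb3, Itgb5, Itgb6 and Itgb8, was at 205 and 253 CPM in lymphatic endothelial-like cells and 33.5 and 34.8 CPM in cardiomyocyte-like cells. Lymphatic endothelial-like cells were called higher (log2 difference 1.15 ± 0.17 (SE), edgeR adjusted p = 1.66e-04) and cardiomyocyte-like cells lower (log2 difference -1.21 ± 0.17 (SE), edgeR adjusted p = 1.43e-05). Itga2b, the platelet fibrinogen receptor subunit, was at 24.1 and 12.5 CPM in epicardial or mesothelial-like cells (log2 difference 2.23 ± 0.33 (SE), edgeR adjusted p = 1.06e-04) and 0 to 7.05 CPM elsewhere.

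The beta subunits that pair with Itgav had different classes at the top. Itgb3, shared with the platelet receptor, was at 95.5 and 112 CPM in lymphatic endothelial-like cells, 48.2 and 36.5 CPM in epicardial or mesothelial-like cells and 18.9 and 31.4 CPM in fibroblast-like cells. All 3 were called higher (log2 difference 3.70 ± 0.28 (SE), edgeR adjusted p = 2.17e-07 in lymphatic endothelial-like cells; log2 differences 2.05 and 1.47 in the others), as were endocardial-like cells (19.3 and 23.3 CPM; 1.18). Cardiomyocyte-like cells held 0.585 and 0.733 CPM of Itgb3, the lowest mean (log2 difference -3.83 ± 0.42 (SE), edgeR adjusted p = 1.45e-06). Itgb8, an activator of latent TGF-beta, was at 81.4 and 186 CPM in epicardial or mesothelial-like cells and 79.0 and 149 CPM in fibroblast-like cells, with overlapping ranges. It was called higher in both (log2 difference 3.46 ± 0.18 (SE), edgeR adjusted p = 1.06e-09, and log2 difference 3.26 ± 0.16 (SE), edgeR adjusted p = 2.53e-09) and in lymphatic endothelial-like cells (28.6 and 71.8 CPM; log2 difference 1.83 ± 0.25 (SE), edgeR adjusted p = 9.45e-05). Cardiomyocyte-like cells held 0.63 and 1.94 CPM of Itgb8 (log2 difference -3.58 ± 0.24 (SE), edgeR adjusted p = 1.68e-08). Itgb5, the vitronectin receptor subunit, was at 219 and 209 CPM in pericyte-like, 201 and 188 CPM in fibroblast-like, 220.4 and 159 CPM in macrophage-like and 157 and 137 CPM in cardiomyocyte-like cells. The 4 other classes were at 12.9 to 84.4 CPM, below each of these values. The 4 classes were called higher, with log2 differences of 1.45, 1.23, 1.06 and 1.41. The cardiomyocyte-like call fell under the 2-fold limit with library totals alone (0.83) and with doublets kept (0.97), and the fibroblast-like and macrophage-like calls did so with doublets kept (0.998 and 0.87).

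Itgb6, the other Itgav partner that activates latent TGF-beta and is best known from epithelia, had its highest level in cardiomyocyte-like cells. It was at 257 and 202 CPM there, with intervals of 253 to 262 and 196 to 208 CPM. The 7 other tested classes held 5.75 to 75.2 CPM, and no value overlapped. The log2 difference was 4.11, the largest of any member in cardiomyocyte-like cells (log2 difference 4.11 ± 0.24 (SE), edgeR adjusted p = 6.06e-09). By library it was 3.20 in library 1 and 4.90 in library 2, and it fell to 2.84 with doublets kept. In each other tested class, Itgb6 and the cardiomyocyte markers both held a smaller share of their cardiomyocyte-like level in library 2 than in library 1. The shares of Itgb6 and of the markers were not alike in every class. In pericyte-like cells Itgb6 was at 29.2% in library 1 and 4.06% in library 2 of its cardiomyocyte-like level, beside 29.7% and 4.48% for the summed markers. In fibroblast-like cells it was at 10.4% in library 1 and 2.85% in library 2, beside 13.8% and 3.35% for the markers. In epicardial or mesothelial-like cells it was at 17.6% in library 1 and 10.9% in library 2, beside 36.1% and 13.6%. In lymphatic endothelial-like cells it was at 14.8% in library 1 and 4.24% in library 2, beside 30.2% and 2.33%. An Itgb6 UMI was seen in 60.4% and 57.0% of cardiomyocyte-like cells (median depths 4799 and 7385 UMIs) and in 5.35% and 1.92% of fibroblast-like cells (median depths 2033 and 3127 UMIs). After thinning to 1000 UMIs the shares were 20.9% and 15.5% of 7519 and 2225 cardiomyocyte-like cells and 3.06% and 0.67% of 882 and 2388 fibroblast-like cells. Whether the low levels in the other classes are expression or cardiomyocyte RNA in their droplets was not tested.

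**Figure D4:**
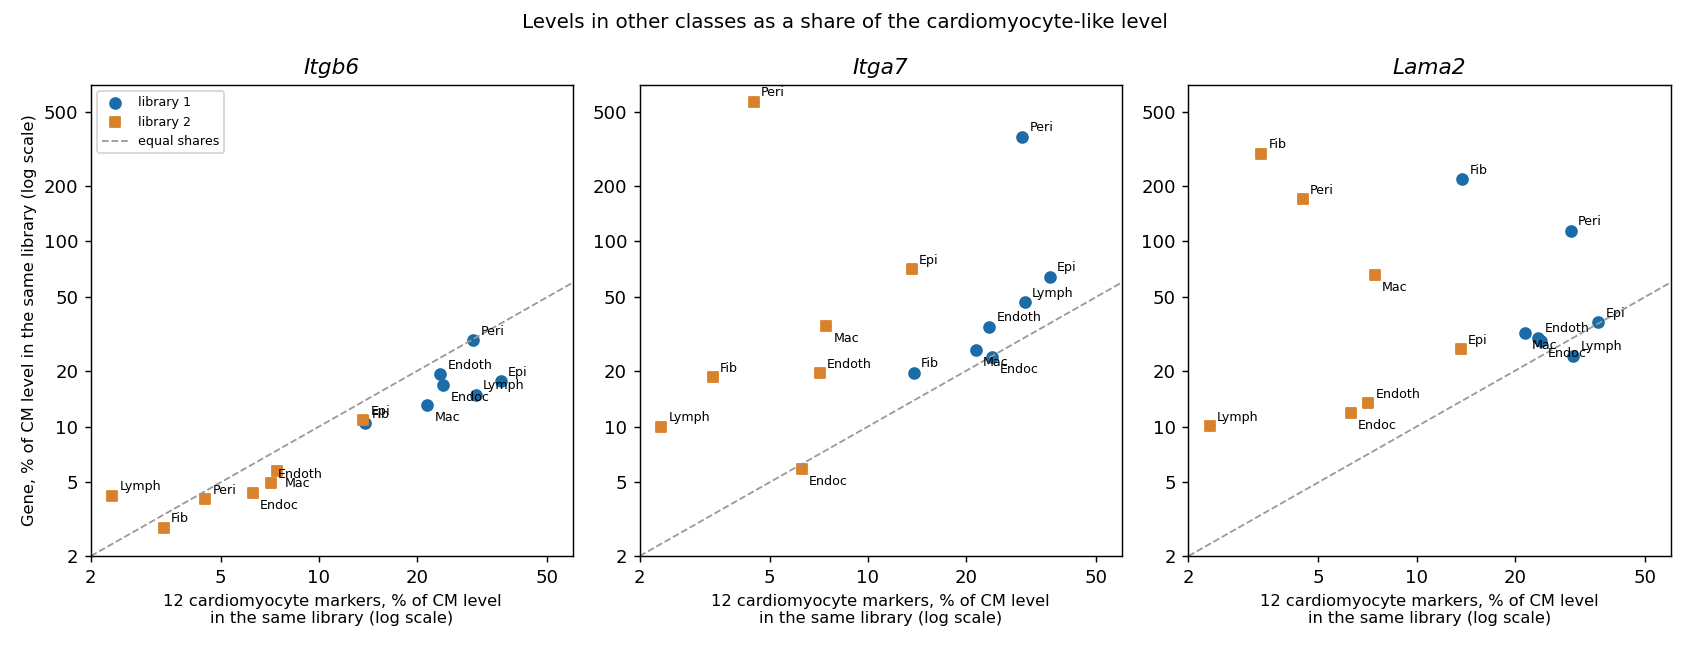
Levels of Itgb6, Itga7 and Lama2 in the 7 other classes as a percentage of the cardiomyocyte-like level of the same library (vertical axis, log scale), against the same percentage for 12 summed cardiomyocyte markers (horizontal axis, log scale). Circles are library 1 and squares library 2, and the dashed line marks equal shares. Itgb6 lies near or under the line in all classes except lymphatic endothelial-like cells (Lymph) of library 2, while Itga7 in pericyte-like cells (Peri) and Lama2 in fibroblast-like cells (Fib) lie far above it.

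Set beside the markers, Itga7 and Lama2 differed from Itgb6 in some classes. Itga7 in pericyte-like cells was at 368% in library 1 and 568% in library 2 of its cardiomyocyte-like level, while the markers were at 29.7% and 4.48%. In endocardial-like cells it was at 23.8% in library 1 and 5.90% in library 2, beside 24.0% and 6.28% for the markers. Lama2 in fibroblast-like cells was at 217% in library 1 and 298% in library 2 of its cardiomyocyte-like level, with the markers at 13.8% and 3.35%. Its level in lymphatic endothelial-like cells was 24.2% in library 1 and 10.1% in library 2 of that in cardiomyocyte-like cells, beside 30.2% and 2.33%.

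The members called lower in cardiomyocyte-like cells were Itga1, Itga4, Itga6, Itga8, Itga10, Itgav, Itgb3, Itgb4, Itgb8, Lama4 and Lamc1. Of these, 6 (Itga4, Itga8, Itga10, Itgb3, Itgb4 and Itgb8) were under 3 CPM in cardiomyocyte-like cells of both libraries. The Lama4 call fell just under the 2-fold limit without the filter on low counts. Cardiomyocyte-like cells were not called for Itgb1, Itga5, Itga9 or Lamb1.

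**Figure D5:**
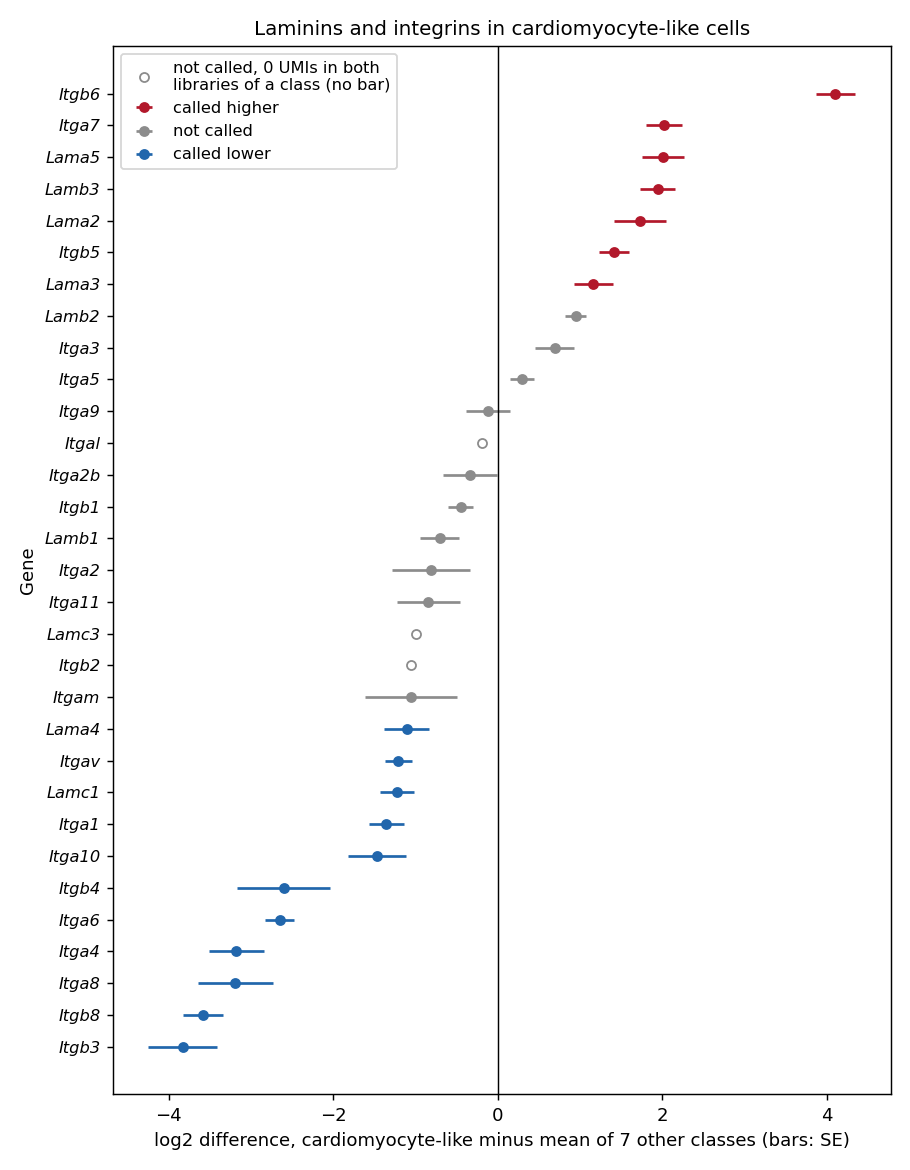
Log2 differences of 31 tested members in cardiomyocyte-like cells minus the mean of the 7 other classes (horizontal axis), ordered by size (vertical axis). Red points were called higher, blue points lower and grey points were not called. Bars are standard errors, and open points had 0 UMIs in both libraries of some class and carry no bar. Itgb6 stands apart at 4.11, and Itgb3 is at the other end at -3.83.

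Itga9, a receptor for tenascin and EMILIN1 that is needed for lymphatic valves, was highest in lymphatic endothelial-like cells. Its level was 797 and 966 CPM there, 480.1 and 515 CPM in endocardial-like cells and 475 and 360.2 CPM in macrophage-like cells. The 5 other classes lay at 33.6 to 248 CPM. Lymphatic endothelial-like and endocardial-like cells were called higher (log2 difference 2.19 ± 0.24 (SE), edgeR adjusted p = 1.13e-05, and log2 difference 1.36 ± 0.25 (SE), edgeR adjusted p = 0.00133), and epicardial or mesothelial-like cells (96.5 and 33.6 CPM) and pericyte-like cells (75.2 and 100.4 CPM) lower. Itga4, the VCAM1 receptor of leukocytes, was at 241 and 246 CPM in macrophage-like cells and 0 to 23.9 CPM elsewhere (log2 difference 5.88 ± 0.20 (SE), edgeR adjusted p = 7.67e-12).

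The leukocyte subunits Itgam and Itgb2, which together form the macrophage complement receptor, were highest in macrophage-like cells. Itgam was at 40.5 and 49.6 CPM in macrophage-like cells, against 0 to 1.99 CPM in the other classes (log2 difference 5.97 ± 0.34 (SE), edgeR adjusted p = 3.57e-09). A second feature of that symbol overlaps it on the same strand, so its counts are uncertain. Itgb2 was at 27.0 and 37.0 CPM in macrophage-like cells, against 0 to 3.02 CPM elsewhere, and was called higher there (edgeR adjusted p = 1.56e-07). Itgal, the ICAM-binding subunit of lymphocytes, was at 4.50 and 9.36 CPM in macrophage-like cells and was called higher there (edgeR adjusted p = 0.00201). Its higher call in lymphatic endothelial-like cells rests on library 2 (9.64 CPM), since library 1 had 0 UMIs, which allows up to 14.3 CPM. Itgb2 and Itgal had 0 UMIs in pericyte-like cells of both libraries, so their fitted differences are not given. The dendritic cell subunit Itgax and the epithelial T cell pair Itgae and Itgb7 stayed at or under 5.15 CPM in macrophage-like cells.

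Itgb1, the partner of most alpha subunits, was the broadest member. It was at 376 and 543 CPM in pericyte-like, 368 and 494 CPM in lymphatic endothelial-like and 157 and 174 CPM in cardiomyocyte-like cells, with the 5 other classes at 202 to 455 CPM. Except for cardiomyocyte-like cells, which had the lowest values, neighbouring classes in the order of levels overlapped. No class passed the 2-fold limit, although edgeR gave adjusted p-values under 0.05 in pericyte-like cells (0.60, edgeR adjusted p = 0.00754) and in cardiomyocyte-like cells (-0.45, edgeR adjusted p = 0.0167, log2 differences).

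Some classes had too few cells for a test, and their levels are descriptions. Smooth muscle-like cells (59 and 20 cells) held 1205 and 1259 CPM of Itga8, above every tested class in both libraries. They also held 135 and 215 CPM of Itga7, 184 and 261 CPM of Lama5 and 535 and 599 CPM of Itgb1. Their Lama2 level was 776 and 476 CPM, below that of pericyte-like cells. Schwann or glial-like cells (35 and 42 cells) held 304 and 495 CPM of Itgav, 88.6 and 284 CPM of Itga4, 114 and 219 CPM of Itgb8, 101 and 97.5 CPM of Itgb4 and 38.0 and 146 CPM of Itga2. Their Itgav and Itga2 levels were above those of every tested class, and for Itgb4 only lymphatic endothelial-like cells reached a like level. Atrial cardiomyocyte-like cells (85 and 8 cells) held 153 and 147 CPM of Itgb6 and 1208 and 1173 CPM of Lama2, both below the ventricular cardiomyocyte-like levels. Hepatocyte-like cells (309 and 0 cells) held 114 CPM of Itgb6 in library 1, and erythroid-like cells (219 and 49 cells) held 86.7 and 47.5 CPM. In library 1 both were above every tested class except cardiomyocyte-like cells. Whether these levels are expression or cardiomyocyte RNA in the droplets was not tested.

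Over the 16 sums of class and library, the levels of some members that share a heterodimer or a trimer rose and fell together across classes. As a description, Pearson's r of log2(CPM + 1) after subtraction of the library mean was 0.92 between Itgam and Itgb2, 0.88 between Lamb1 and Lamc1, and 0.70 between Itgav and Itgb8. The highest value for Lama2 and for Itgb5 was with each other (0.87), and the same held for Itga3 and Lama5 (0.82). The closest match of Itgb6 was Lamb3, at 0.56. The sums share 2 libraries and classes of very different depth.

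Other basement membrane genes were counted in the same way. Of 21 laminin partners, 10 were called higher (47.6%, background 10.7%) and 4 lower (19.0%, background 8.75%) in fibroblast-like cells, with a median log2 difference of 0.91. The largest differences there were in the matricellular Smoc2 (498 and 602 CPM; 4.58), the basement membrane collagen Col15a1 (638 and 1031 CPM; 4.41), the laminin-binding linker Nid1 (759 and 988 CPM; 2.89) and the laminin receptor Bcam (16.4 and 10.8 CPM; -2.47). In cardiomyocyte-like cells 3 were higher (14.3%, background 18.8%) and 11 lower (52.4%, background 20.9%), with a median of -1.24. Nid1 (-3.63), Col18a1 (-3.55) and Sparc (-2.93) were lower there and Frem2 (3.26) was higher. In epicardial or mesothelial-like cells 8 were higher (38.1%, background 13.7%) and 5 lower (23.8%, background 5.25%), led by Fras1 (401 and 704 CPM; log2 difference 6.31 ± 0.15 (SE), edgeR adjusted p = 1.25e-12), which links epithelial basement membranes to the stroma. In endocardial-like cells 7 were higher (33.3%, background 8.11%) and 3 lower (14.3%, background 3.15%), with Smoc1 (376 and 693 CPM; 5.86), Col4a3 (454 and 823 CPM; 4.29) and Col4a4 (642 and 1113 CPM; 3.85) at the top. Pericyte-like cells had 7 higher (33.3%, background 8.0%) and 2 lower (9.52%, background 5.74%), among them the collagen IV chains Col4a1 (983 and 1165 CPM; 1.90) and Col4a2 (708 and 801 CPM; 1.77). Endothelial-like cells had 3 higher and 7 lower (14.3% and 33.3%, backgrounds 10.1% and 6.14%). Lymphatic endothelial-like cells had 2 higher and 5 lower (9.52% and 23.8%, backgrounds 9.29% and 5.02%). Macrophage-like cells had 1 higher and 11 lower (4.76% and 52.4%, backgrounds 11.4% and 4.79%).

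Ligands of integrins other than laminin were mostly low in cardiomyocyte-like cells, where 16 of 21 tested were called lower (76.2%, background 20.9%) and 1 higher (4.76%, background 18.8%), with a median log2 difference of -3.18. Fibrillin Fbn1 (-4.32) and fibronectin Fn1 (-3.84) were among them. In endocardial-like cells 10 were higher (47.6%, background 8.11%) and 2 lower (9.52%, background 3.15%), led by the Itga4 ligand Vcam1 (427 and 457 CPM; log2 difference 4.70 ± 0.18 (SE), edgeR adjusted p = 3.61e-10), followed by Cd93, Icam2 and Icam1 (4.25, 3.94 and 2.78). In lymphatic endothelial-like cells, the class with the highest Itga9, 9 were higher (42.9%, background 9.29%) and 2 lower (9.52%, background 5.02%). The Itga9 ligand tenascin-C, Tnc, led there (95.5 and 134 CPM; log2 difference 5.44 ± 0.24 (SE), edgeR adjusted p = 5.14e-10), and Tgfbi (3.22) followed. In pericyte-like cells 6 were higher (28.6%, background 8.0%) and 7 lower (33.3%, background 5.74%). Among the higher ones were vitronectin, Vtn, at 349 and 243 CPM and periostin, Postn, at 261 and 492 CPM (log2 difference 3.40). Vtn was also among the markers used to name the pericyte-like class. Its higher call there is therefore not a separate result, and its test is not given. In epicardial or mesothelial-like cells 3 were higher (14.3%, near the background of 13.7%) and 7 lower (33.3%, background 5.25%), and the Itga8 ligands Egfl6 (12.1 and 18.8 CPM) and Npnt (42.2 and 56.4 CPM) led. Fibroblast-like cells had 7 higher and 3 lower (33.3% and 14.3%, backgrounds 10.7% and 8.75%). Endothelial-like cells had 7 higher and 4 lower (33.3% and 19.0%, backgrounds 10.1% and 6.14%). Macrophage-like cells had 3 higher and 3 lower (14.3% and 14.3%, backgrounds 11.4% and 4.79%).

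Of 28 tested adaptor and signalling genes on the inner side of integrins, 6 were higher and 7 lower in cardiomyocyte-like cells. These shares, 21.4% and 25%, are near the backgrounds of 18.8% and 20.9%. The muscle protein melusin, Itgb1bp2, which binds the tail of Itgb1, was at 319 and 299.9 CPM (log2 difference 3.42 ± 0.20 (SE), edgeR adjusted p = 6.02e-09). The tetraspanin Cd9 was at 3.13 and 7.33 CPM (log2 difference -4.33 ± 0.26 (SE), edgeR adjusted p = 7.03e-09), and the adaptor Lims2 (-2.83) and the kinase Src (-1.86) were also lower. Lims2 was the leading adaptor in endothelial-like cells (688 and 677 CPM; log2 difference 4.16 ± 0.24 (SE), edgeR adjusted p = 6.22e-09), where 6 were higher (21.4%, background 10.1%) and 2 lower (7.14%, background 6.14%). The leukocyte kindlin Fermt3 led in macrophage-like cells (187 and 147 CPM; log2 difference 5.50 ± 0.21 (SE), edgeR adjusted p = 3.82e-11), where 3 were higher (10.7%, background 11.4%) and 9 lower (32.1%, background 4.79%). The focal adhesion kinase relative Ptk2b led in epicardial or mesothelial-like cells (172 and 271 CPM; log2 difference 4.31 ± 0.17 (SE), edgeR adjusted p = 9.61e-11), where 6 were higher (21.4%, background 13.7%) and 1 lower (3.57%, background 5.25%). In fibroblast-like cells 1 was higher (3.57%, background 10.7%) and 8 lower (28.6%, background 8.75%). In pericyte-like cells 4 were higher (14.3%, background 8.0%) and 6 lower (21.4%, background 5.74%). In lymphatic endothelial-like cells 5 were higher (17.9%, background 9.29%) and 3 lower (10.7%, background 5.02%). In endocardial-like cells 4 were higher (14.3%, background 8.11%) and 0 lower (background 3.15%).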

How the data were processed

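Frozen right ventricles were digested and run on the Chromium 3′ v3 chemistry, per the labels' protocols. The authors deposited 1 matrix of UMI counts for both libraries, per the file headers whole-number counts per feature and barcode, not normalized. Cell Ranger 6.0.0, fastp, Seurat, Trimmomatic and edgeR are listed in the submitters' processing notes with the build GRCm38 (mm10), with settings not given in the sources used here. Whether counting used strand or introns is not given either. The barcode suffixes 1 and 2 were matched to the sample titles that end in the same digit.

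Cells with at least 500 UMIs, 200 genes and at most 25% mitochondrial counts were kept (22137 barcodes). Scrublet in scanpy 1.11.5, with an Otsu threshold on simulated scores, marked 605 barcodes (4.75%) of library 1 and 690 (7.33%) of library 2 as doublets. Marked cells and clusters with over 40% marked were removed (1701 cells). Leiden clustering at resolution 1 on 2000 variable genes, 30 components and 15 neighbours left out 110 features (members, their partners and relatives), and gave 30 clusters, of which 22 were named. The rule for names was chosen with the clusters in view. It asked for at least 3 markers of the best list at 2-fold, no excess of another list's markers among the 10 leading genes, and at least 50 cells. Members and gene lists were chosen with earlier results of these data known.

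Counts were summed per library and class (16 sums), scaled by TMM, filtered with filterByExpr and fitted with edgeR 4.0.16 (R 4.3.3) with library as a block, which leaves 7 residual degrees of freedom. Each class was set against the mean of the 7 others. The biological coefficient of variation was 0.166. The standard error given is the log2 difference divided by the square root of F. CPM use all UMIs of a sum, intervals are exact Poisson with 95% confidence and cover counting error only, and a count of 0 allows up to 3 counts. The fit was tested on simulated data. A member was described in full where it was called higher in a class with a mean of at least 20 CPM. From each partner list, up to 4 genes with the largest differences in a class were named. Alternatives were other scalings, DESeq2 1.42.0, no filter, no block, other clustering resolutions, stricter cell filters, kept doublets and each library alone. A member counted in the totals is not reported here. Overlapping genes come from the GENCODE annotation of GRCm38.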

Additional observations from a re-analysis of the deposited data

How the results depend on the processing

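Counts of members called higher in a class stayed within 1.5 times of those reported under all alternatives with a test. Counts of members called lower were less stable. Without library as a block, they were 2 in endocardial-like cells, 0 in endothelial-like cells and 3 in macrophage-like cells. In the endothelial-like class the unblocked differences kept their sign. At the finer clustering resolution 1 member was called lower in endocardial-like cells. With doublets kept, 2 were lower in endothelial-like cells and 3 in macrophage-like cells. With only 1 library left there is no test, and counts past 2-fold were 5 to 10 higher and 7 to 9 lower in endocardial-like cells, 7 to 9 lower in endothelial-like cells, 6 to 7 lower in lymphatic endothelial-like cells, 6 to 18 lower in macrophage-like cells and 11 to 14 lower in pericyte-like cells. Among the members described in full, no difference changed sign while called, and the other members were not checked for this. The cause of these changes was not tested. The labels do not say whether the libraries share animals. Lymphatic endothelial-like and epicardial or mesothelial-like cells of library 1 rest on 52 and 65 cells, so members under about 15 CPM there rest on few counts.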

Other observations

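Within classes, clusters formed without the members differed in their laminins and integrins. These are values per cluster, with no test. Of the 3 endothelial-like clusters, the one led by Sema3g and Gja5, genes known from arteries, had 16 cells in library 1 and 53 in library 2 and was summed in library 2 alone. It held 527 CPM of Lama3, against 25.8 and 46.0 CPM in the cluster led by genes such as Rgcc and Car4, known from capillaries, and 8.60 and 34.4 CPM in the third cluster (libraries 1 and 2). Itga6 was at 55.4 CPM in the Sema3g cluster, against 480.4 and 648 CPM in the Rgcc cluster and 275 and 386 CPM in the third. Itga9 was at 596 CPM in the Sema3g cluster, against 85.8 and 112 CPM in the Rgcc cluster and 206 and 494 CPM in the third. Itgb4 was at 125 CPM in the Sema3g cluster, against 3.10 and 0.63 CPM in the Rgcc cluster and 68.8 and 31.4 CPM in the third, so both were also above the Rgcc cluster there.

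Of the 3 fibroblast-like clusters, the one led by genes such as Pi16 and Cd248 (181 and 406 cells) held 5.06 and 7.93 CPM of Itga8. The cluster led by Abca8a and Col15a1 held 68.2 and 111 CPM of Itga8, and the one led by Thsd7b and Vit 155 and 229 CPM. The Pi16 cluster also held 2294 and 2228 CPM of Lamc1 and 159.5 and 230.1 CPM of Itga5, against 789 and 1005 CPM and 74.0 and 66.2 CPM in the Thsd7b cluster. Lama2 was at 3066 and 3299 CPM in the Pi16 cluster and 4883 and 5225 CPM in the Col15a1 cluster. The ranges of Itga8 in the Pi16 cluster and in the other two did not overlap in either library.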
